A study of Mus musculus with 139 samples.

Results

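Single outer hair cells (OHCs) were set against single inner hair cells (IHCs) from the apex of the mouse cochlea, the end of the spiral tuned to low frequencies. The cells were chosen by their labels alone, which put 21 OHCs and 34 IHCs in the apex, so 55 of the 139 cells of the series were compared. All came from mouse cochlea between postnatal days 14 and 16, with no treatment named, and each library is 1 cell. The remaining cells came from the middle and the base and are used here only to show where the apical difference was found again.

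OHCs and IHCs share the hair bundle and the channels that turn its deflection into a current, but they do different work. IHCs release glutamate onto the fibres of the auditory nerve through ribbon synapses, which depend on the calcium sensor otoferlin and on a vesicular glutamate transporter. OHCs change length through prestin, a motor protein in their lateral wall, and so amplify vibration, and at this age their base is contacted mainly by efferent fibres that act through nicotinic receptors and a calcium-activated potassium channel.

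The labels name no animal, strain or sex, nor how the cells were picked, so apical OHCs and apical IHCs are 1 sample each, and the differences carry neither a test nor a check in replicates. Levels are CPM, a gene's count scaled to a common total. A pooled level is the sum over all cells of a type after TMM scaling, a difference is log2 of the ratio of pooled (CPM + 1), OHC over IHC, and a single cell's level is its count over its own total. Counts per cell ran from 472897 to 13576942 in OHCs (median 4092895) and from 103101 to 11003439 in IHCs (median 3597253). Detected genes had medians of 5996 and 5506, and mitochondrial genes took a median of 5.10% and 3.43% of a cell's counts. Titles also carry a number whose meaning is not given: 12 OHCs and 17 IHCs are numbered above 100, and 9 OHCs and 17 IHCs up to 100. Cells numbered above 100 gave 82.2% of the OHC counts and 64.7% of the IHC counts, so many of the lists and genes are also given within these 2 series, called the higher and the lower numbers. No 2 of the 55 columns were identical, and the highest correlation of a pair of cells was 0.782.

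Before any comparison, each cell was checked against its label with the most specific genes of both types, Otof and Slc17a8 for IHCs and Slc26a5 and Ocm for OHCs. All 21 OHCs had more of the OHC pair than of the IHC pair. Of the 34 cells labelled IHC, 4 went against their label, and 3 of these are numbered above 100. IHC cell 8 had 0.984 CPM of Otof, 1523 CPM of Ocm and 3978 CPM of Ikzf2. IHC cell 5 carried both programmes, with 1096 CPM of Otof and 1373 CPM of Ocm. IHC cells 18 and 22 had no read of Otof, Slc17a8 or Slc26a5 and 53.9 and 67.9 CPM of Ocm, near the IHC median of 55.8 CPM. These 2 cells thus went against their label through a low level of Ocm alone. Cell 22 is the shallowest of all 55 and shares the title number 17 with IHC cell 21. The labels do not say whether cells 21 and 22 are libraries of 1 cell. A further group was mixed without going against its label: 12 IHCs and 6 OHCs had at least 100 CPM of both pairs, and 9 of these IHCs are numbered above 100. Whether such cells were 2 cells, or took up RNA of a neighbour, was not tested. The defining genes and the marker lists are therefore also given without the 4 cells. Otof, Slc17a8, Slc26a5 and Ocm picked out these cells, so larger differences of these genes without the 4 cells follow from the choice. None of the 27 list medians changed its sign without the 4 cells.

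**Figure D1:**
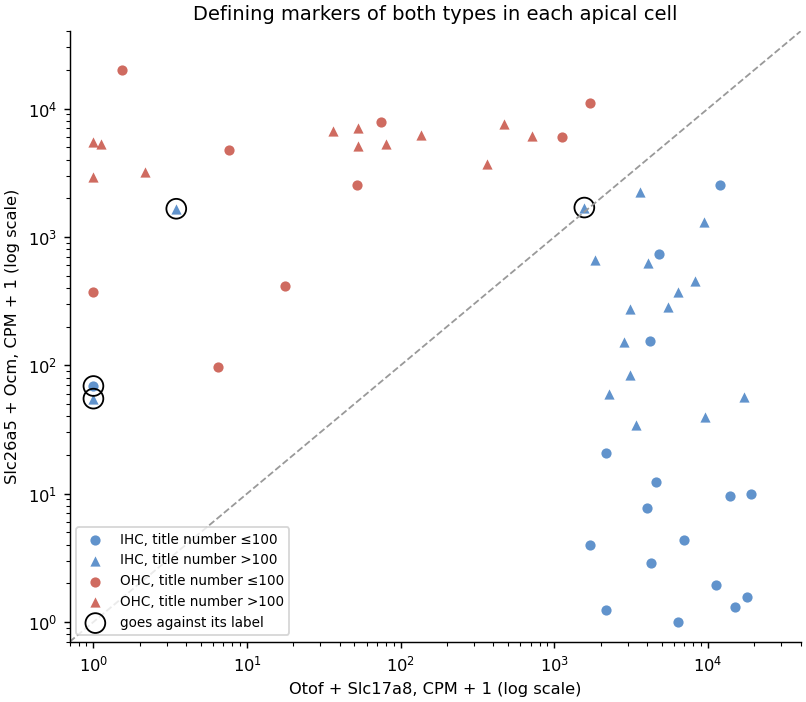
Summed Otof and Slc17a8 (x axis) against summed Slc26a5 and Ocm (y axis) in each of the 55 apical cells, both as CPM + 1 on log axes; colour gives the labelled type, shape the title-number series, and the dashed line equal levels. The 21 OHCs all lie above the line, 30 of the 34 IHCs lie below it, and the 4 circled IHCs go against their label.

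Each of the 6 defining genes differed in the direction of its label. Otof, on chromosome 5 (GRCm38, 30367062 to 30461932), ran from 0 to 18826 CPM in single IHCs with a median of 4120 CPM. In OHCs it ran from 0 to 1714 CPM with a median of 35.5 CPM. The ranges overlapped, yet the OHC was the higher cell in only 7.84% of the 714 pairs of an OHC and an IHC. Pooled levels were 213 CPM in OHCs (95% Poisson interval 210 to 216) and 5448 CPM in IHCs (5436 to 5459), a log2 ratio of −4.67, and −4.80 without the 4 cells. These intervals hold counting error only, and single cells spread far more widely.

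Slc17a8, which encodes the vesicular glutamate transporter of IHCs, had a median of 0 CPM and a highest value of 51.5 CPM in OHCs, against a median of 164 CPM and a highest value of 5397 CPM in IHCs. The highest OHC thus stayed below the IHC median, and the pooled log2 ratio was −6.34 (−6.44 without the 4 cells). Tbx2, which encodes a T-box transcription factor that keeps IHCs from becoming OHCs, ran from 0 to 24.7 CPM in OHCs (median 0) and from 0 to 334 CPM in IHCs (median 6.97). Its pooled log2 ratio was −3.36, and −3.48 without the 4 cells. The gene was read in 25 of 34 IHCs and 6 of 21 OHCs, and in 70% and 26.3% of them once every cell was thinned to 570483 counts, which kept 30 IHCs and 19 OHCs.

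Of the OHC genes, Ocm separated single cells best; its product oncomodulin binds calcium. Its lowest, median and highest levels were 30.8, 4711 and 19865 CPM in OHCs and 0, 55.8 and 2530 CPM in IHCs, and the OHC was higher in 94.4% of pairs. Among cells numbered above 100 every OHC was above every IHC. The pooled log2 ratio was 4.17, and 4.32 without the 4 cells. Slc26a5, which encodes prestin, ran from 0 to 2650 CPM in OHCs (median 315) and from 0 to 318 CPM in IHCs (median 0), with a pooled log2 ratio of 3.82 (3.98 without the 4 cells). Ikzf2, which encodes Helios, a transcription factor of maturing OHCs, had medians of 123 and 14.3 CPM and highest values of 7372 and 3978 CPM. Its pooled log2 ratio of 2.76 became 3.33 without the 4 cells, since IHC cell 8 alone held 34% of the IHC counts. In the lower numbers the ratio was 4.60, but only 1 of 9 OHCs, cell 15 at 7372 CPM, had at least 100 CPM. The OHC was higher in 54.9% of the pairs within these numbers.

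The levels of Slc26a5 in IHCs followed the title numbers. At least 10 CPM were found in 9 of 17 IHCs numbered above 100 and in 0 of 17 numbered up to 100. The same split ran through OHCs, with 12 of 12 against 2 of 9 cells at that level, and medians of 558 and 2.83 CPM. The Ocm medians did not split OHCs in this way, at 4619 and 4711 CPM, whereas in IHCs they were 198 and 6.75 CPM. Yet OHC cells 12, 20 and 21, numbered up to 100, had only 416, 369 and 30.8 CPM of Ocm. The lowest OHC numbered above 100 had 2257 CPM. What the numbers stand for, and so what moves with them, cannot be told apart here.

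**Figure D2:**
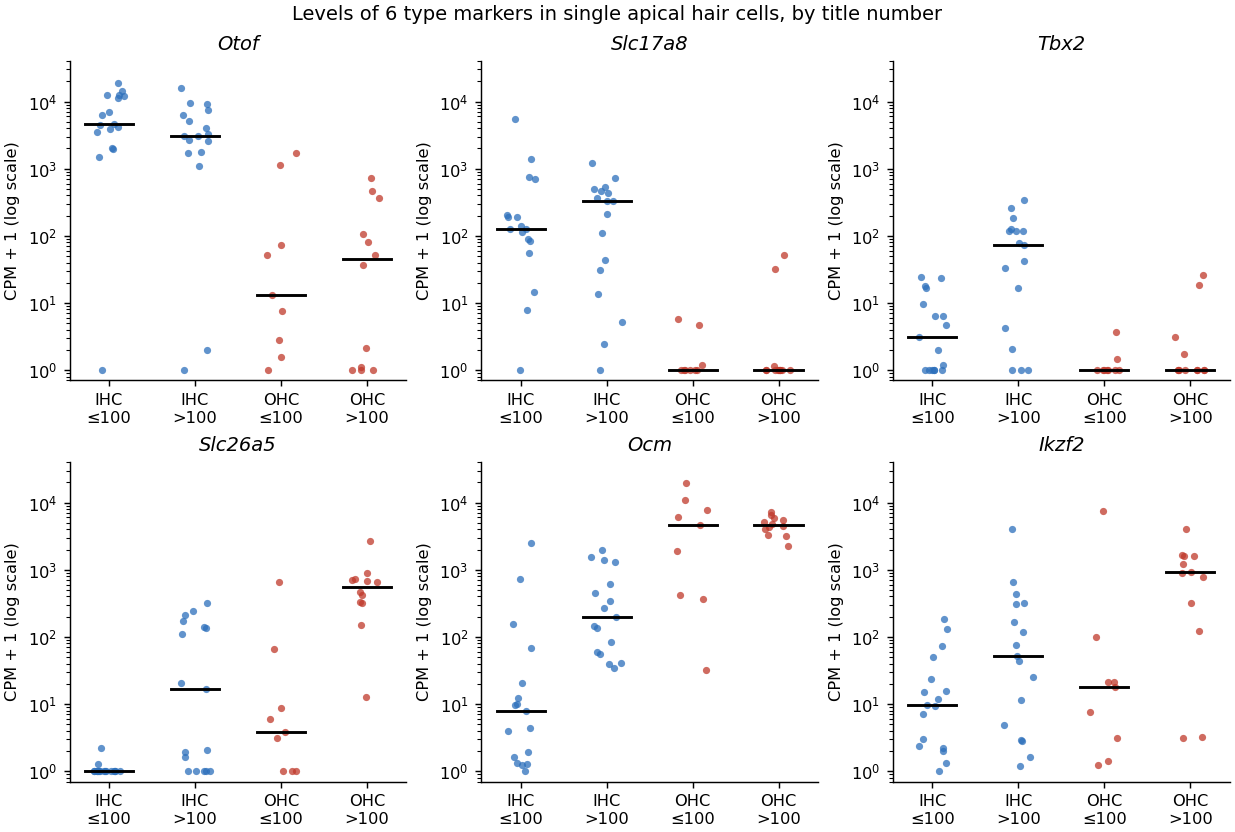
Levels of 6 type markers in each apical cell (CPM + 1, log axis) by labelled type and title-number series; points are cells and bars are medians. The Ocm median is high in OHCs of both series, although OHC cells 12, 20 and 21 lie at 416, 369 and 30.8 CPM. Slc26a5 is high mainly in OHCs numbered above 100. It is read at 10 CPM or more in 9 of the 17 IHCs numbered above 100.

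The start regions of 4 genes are shown as examples, because Tbx2 and Ikzf2, whose products bind DNA, differed in opposite directions. The windows run from 250 bases before to 50 bases after the RefSeq start on GRCm38.p6, on the strand of the gene. Capitals mark every match, on either strand, to AGGTGT, a T-box half-site (ACACCT on the other strand), or to TGGGAA, the core bound by Ikaros proteins (TTCCCA on the other strand). Slc26a5 and Sri were higher in OHCs, and Slc17a8 and Slc7a14 higher in IHCs. The windows lie at chr5:21865555-21865854 (minus strand), chr5:8045828-8046127 (plus), chr10:89621200-89621499 (minus) and chr3:31310270-31310569 (minus).
Slc26a5: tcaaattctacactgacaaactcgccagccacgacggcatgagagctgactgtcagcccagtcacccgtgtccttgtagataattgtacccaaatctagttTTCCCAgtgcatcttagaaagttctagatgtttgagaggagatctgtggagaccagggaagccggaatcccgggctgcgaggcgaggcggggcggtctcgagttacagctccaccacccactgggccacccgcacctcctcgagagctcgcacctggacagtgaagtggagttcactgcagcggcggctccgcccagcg
Sri: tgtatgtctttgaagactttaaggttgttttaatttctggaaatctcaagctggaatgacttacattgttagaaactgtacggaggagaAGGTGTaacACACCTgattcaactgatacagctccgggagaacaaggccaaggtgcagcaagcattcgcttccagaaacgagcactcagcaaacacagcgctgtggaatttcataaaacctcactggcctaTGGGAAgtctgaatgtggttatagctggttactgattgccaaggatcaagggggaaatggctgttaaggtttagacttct
Slc17a8: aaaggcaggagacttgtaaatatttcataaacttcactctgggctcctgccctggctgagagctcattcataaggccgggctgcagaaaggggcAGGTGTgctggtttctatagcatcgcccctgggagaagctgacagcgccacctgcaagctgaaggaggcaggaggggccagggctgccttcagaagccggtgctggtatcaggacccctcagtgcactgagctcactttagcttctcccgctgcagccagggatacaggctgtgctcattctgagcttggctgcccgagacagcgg
Slc7a14: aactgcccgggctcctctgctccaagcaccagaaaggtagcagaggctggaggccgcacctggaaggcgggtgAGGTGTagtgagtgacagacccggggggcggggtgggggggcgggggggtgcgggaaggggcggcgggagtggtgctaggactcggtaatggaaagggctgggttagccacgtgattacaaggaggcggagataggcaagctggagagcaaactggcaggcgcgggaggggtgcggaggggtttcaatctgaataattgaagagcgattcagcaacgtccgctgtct
Slc17a8 and Slc7a14 each held 1 T-box half-site, at 156 and 177 bases before the start, and no Ikaros core. Slc26a5 held 1 Ikaros core and Sri held 1 of these and 2 half-sites. RefSeq windows were found for 22 of the 28 genes named or used as defining markers, 10 of them higher in OHCs and 12 higher in IHCs. AGGTGT occurred in 2 of the 10 and 2 of the 12, against 13.7% of all 32851 windows, and TGGGAA in 4 of the 10 and 4 of the 12, against 25.6%. A TATAAA box was found in none of the 22, against 13.6% of all windows. The 4 windows shown do not stand for the rest, since Slc17a8 and Slc7a14 were the only 2 of the 12 with AGGTGT. Ocm, higher in OHCs, held 2 half-sites and no Ikaros core. Btg2, Fgf10, Kifap3 and Lpp, higher in IHCs, each held 1 Ikaros core and no half-site. The RefSeq starts used for Ocm, Fgf10 and Ehbp1 lie 23939, 44908 and 55497 bases from the starts of these genes in GENCODE. Their windows may therefore not be the start regions in use. A match is only a description of the letters.

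Of 11409 genes with at least 5 CPM in 1 or both types, 4040 (35.4%) had pooled OHC levels 2-fold or more above those of IHCs and 4090 (35.8%) 2-fold or more below, so past 2-fold was the common case. Without the 4 cells the shares were 35.2% and 35.4%, and with equal weight per cell 33.5% and 37.2%. In cells numbered above 100 these shares were 36.5% and 34.8%, and in cells numbered up to 100 they were 11.6% and 37.2%. Past 2-fold in both series were 3.72% on the higher and 13.1% on the lower side, and asking also for pooled and equal-weight differences left 3.4% and 12%. Of 3486 genes past 2-fold in both series, 1563 pointed in opposite directions. The median over all 11409 genes was 0.07 pooled, 0.07 in the higher numbers and −0.18 in the lower. Counts within gene lists were read against these shares.

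The wider marker lists followed the labels in both series. Of the 10 IHC markers, 9 passed the 5 CPM filter, 7 of these were past 2-fold lower in OHCs and the same 7 were so in both series, with a median log2 ratio of −3.82 (−3.92 without the 4 cells). Slc7a14, of the cationic amino acid transporter family, was read in 3 of 21 OHCs with a highest value of 8.81 CPM, while IHCs ran from 0 through a median of 267 to 10760 CPM. Its pooled log2 ratio of −10.13 rests on 29 counts in all OHCs. Slc7a14 reached at least 100 CPM in 15 of 17 IHCs numbered above 100 and in 4 of 17 numbered up to 100. Atp2a3, which encodes a calcium pump of the endoplasmic reticulum, reached 12.8 CPM in OHCs (median 0.0737) and ran from 0 to 8945 CPM in IHCs (median 953), a ratio of −9.17, and the OHC was higher in 2.38% of pairs. Shtn1 and Dnajc5b, which encode shootin and a cysteine string protein, had pooled levels of 1.22 against 30.4 CPM and 0.0199 against 7.70 CPM. The 2 exceptions were Cabp2, which encodes a calcium-binding protein of the IHC synapse, at 0.45, and Rprm, at 0.39. For Cabp2 the pooled value was set by 1 OHC that held 68% of the OHC counts, and the medians were 0.539 CPM in OHCs and 6.24 CPM in IHCs. Fgf8 had 3 and 0 counts and did not pass.

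All 10 OHC markers that passed, of 11, were past 2-fold higher in OHCs, with a median of 3.30 (3.46 without the 4 cells). In both series 9 of them were so, Ikzf2 in the lower numbers mainly through 1 OHC. Dnm3, a dynamin, had a median of 2100 CPM in OHCs (0 to 9966) and 3.48 CPM in IHCs (0 to 2245). Lbh, a transcriptional cofactor, had medians of 342 and 0.454 CPM and log2 ratios of 2.56 and 6.54 in the higher and lower numbers. Lmod3, a leiomodin that nucleates actin, had the largest pooled ratio of the list, 4.18, but its median was 0 CPM in both types. Strip2 had the smallest, 1.93. Insm1 had 4 and 0 counts and did not pass.

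**Figure D3:**
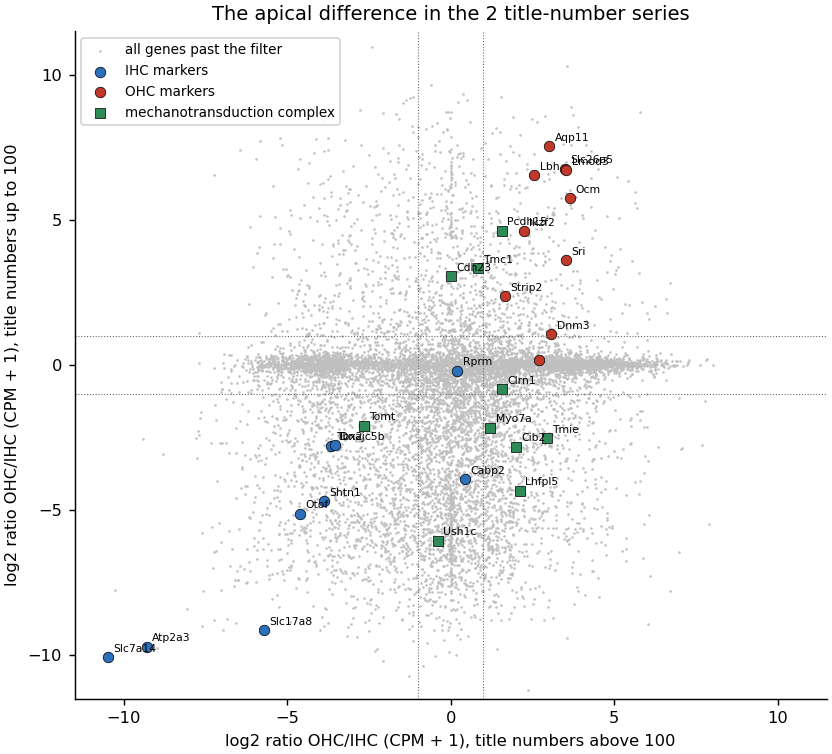
Log2 ratio of pooled (CPM + 1), OHC over IHC, in cells numbered above 100 (x axis) against cells numbered up to 100 (y axis) for all genes past the filter, with 3 lists in colour; dotted lines mark 2-fold. The IHC markers other than Cabp2 and Rprm lie in the lower left and the OHC markers in the upper right while 6 of the 10 mechanotransduction genes lie below −1 on the y axis.

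Genes that every hair cell uses did not repeat between the series. Of the 12 general hair cell genes, 7 were past 2-fold higher in OHCs and 0 lower, beside 35.4% and 35.8% of all genes. Their median was 1.23. In cells numbered up to 100 the median was −1.55, with 2 higher and 6 lower, and no member was past 2-fold in the same direction in both. Myo6, which encodes the unconventional myosin of the bundle base, had medians of 2775 and 3378 CPM in OHCs and IHCs and a ratio of −0.16, with 0.25 in the higher and −2.43 in the lower numbers. Pou4f3, a transcription factor that hair cells need to survive, had medians of 89.1 and 50.9 CPM and a ratio of 0.55 pooled, 0.83 in the higher and −2.44 in the lower numbers.

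A fixed rule of size named 12 genes in each direction. It took protein-coding genes past 2-fold pooled, with equal weight per cell and in both series, read in at least 50% of the cells of the higher type and with no cell holding over 50% of that type's counts, ranked by the smallest of these ratios. The markers Ocm, Slc26a5, Sri and Aqp11 were among the 12 higher genes, beside 8 others. Sri, which encodes sorcin, a calcium-binding regulator of calcium release, ran from 0 to 2207 CPM in OHCs (median 139) and from 0 to 230 CPM in IHCs (median 1.43), with ratios of 3.52 and 3.60 in the 2 series. Aqp11, an intracellular aquaporin, ran from 0 to 6484 CPM (median 21.6) against 0 to 260 CPM (median 0), with a pooled ratio of 3.48.

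Olfm1, which encodes a secreted glycoprotein of neural tissue, was the most even of the other higher genes. It was read in all 21 OHCs, from 1.16 to 1749 CPM with a median of 533 CPM, and in IHCs it ran from 0 to 266 CPM with a median of 1.73 CPM. The OHC was higher in 86.8% of pairs, and the pooled ratio was 3.56. Dusp8, a phosphatase that acts on MAP kinases, ran from 0 to 15541 CPM in OHCs (median 42.8) and from 0 to 1192 CPM in IHCs (median 0.421), with a ratio of 4.28. Lrrc20, a leucine-rich repeat protein, had medians of 35.6 and 0 CPM and a ratio of 3.79.

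The other 5 were high in a minority of OHCs, with OHC medians below 1 CPM. Prmt3, an arginine methyltransferase, had the largest pooled ratio of the 12, 5.59, with 250 CPM in OHCs and 4.21 CPM in IHCs, but only 5 of 21 OHCs had at least 10 CPM. IHC cell 5, which goes against its label, held 50% of its IHC counts, and without the 4 cells the ratio was 6.26. Cacna2d4, an auxiliary subunit of calcium channels, reached 1000 CPM in OHCs (median 0.314) and 43.9 CPM in IHCs. Cox7b, a subunit of cytochrome c oxidase, reached 2177 CPM (median 0.808) and 362 CPM. Syncrip, an RNA-binding protein, reached 2538 CPM (median 0.367) and 144 CPM. Prkce, a protein kinase C, reached 2644 CPM (median 0.947) and 216 CPM. For these the share of pairs with the OHC higher lay between 60.6% (Prkce) and 64.7% (Cacna2d4), so most of their pooled difference came from few cells.

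The 12 lower genes had pooled OHC levels of at most 2.23 CPM (Ptprz1). Slc7a14 and Atp2a3 came first. Prkd1, which encodes protein kinase D, had 7 counts in all OHCs, with a highest cell of 4.04 CPM, and ran from 0 to 4283 CPM in IHCs with a median of 149 CPM. Pooled levels were 0.0696 CPM (95% Poisson interval 0.0280 to 0.143) and 580 CPM, a ratio of −9.08. Kifap3, an adaptor of the kinesin motor that serves cilia, was read in 4 of 21 OHCs and 28 of 34 IHCs, with an IHC median of 257 CPM and a ratio of −9.00. Ptprz1, a receptor tyrosine phosphatase, ran from 0 to 54.6 CPM in OHCs (median 0.0748) and from 0 to 4472 CPM in IHCs (median 207), a ratio of −7.36. Wdfy2, an endosomal protein, had an IHC median of 31.3 CPM, and Ppp2r2b, a regulatory subunit of a protein phosphatase, reached 946 CPM in IHCs and 1.84 CPM in OHCs.

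In the remaining 5 lower genes the IHC median lay between 0.119 CPM (Ehbp1) and 16.2 CPM (Btg2), and a part of the IHCs carried the level. Btg2, an early response gene, reached 2475 CPM in IHCs and 19.8 CPM in OHCs. Tmem87b, a protein of the Golgi, and Fgf10, a secreted growth factor, had at least 10 CPM in 16 and 15 of 34 IHCs and in 0 of 21 OHCs. Ehbp1, an endocytic adaptor, and Lpp, a protein of cell contacts, reached it in 13 IHCs each and in 0 OHCs. For Ehbp1 1 IHC held 48.7% of the IHC counts. Of the 28 named and defining genes, 4 overlap another gene on the same strand (Prkce, Prmt3, Syncrip and Wdfy2) and 8 overlap one on the opposite strand, and the sources used here do not say whether reads were counted by strand.

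The named differences met the other regions unequally. Of the 12 genes lower in apical OHCs, 10 were at least 2-fold lower in OHCs of the middle and 12 in those of the base, where 29.5% and 50.3% of the same 11409 genes were. Of the 12 higher genes, 6 were at least 2-fold higher in the middle and 5 in the base, against 17.7% and 14.4% of all, and 2 and 6 pointed past 2-fold the other way. Ocm, Slc26a5 and Olfm1 were higher in all 3 regions, with ratios of 3.01 in the middle and 1.32 in the base for Olfm1. Dusp8 (−2.10 and −4.35) and Prkce (−4.54 and −1.68) were lower in OHCs of both other regions. The base rests on 8 OHCs, Btg2 had no count there, and the median over all genes was −1.03 in the base and −0.12 in the middle.

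**Figure D4:**
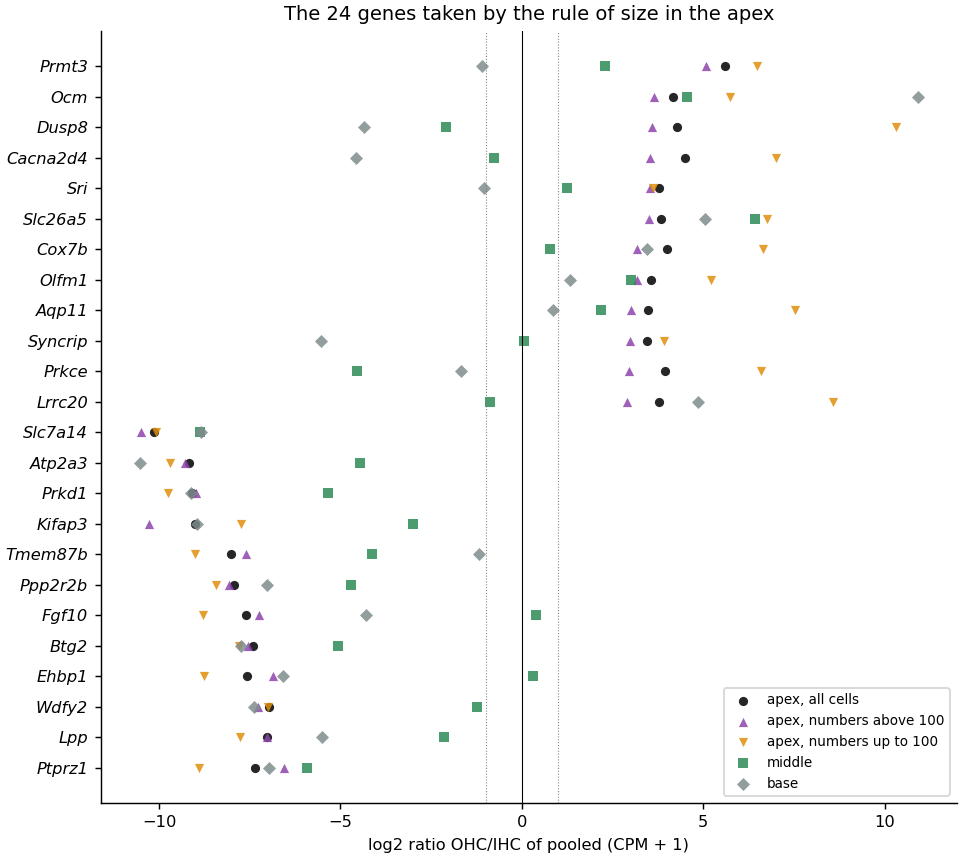
Log2 ratio of pooled (CPM + 1), OHC over IHC, for the 24 genes taken by the rule of size, in all apical cells, in each title-number series, in the middle and in the base; dotted lines mark 2-fold. The apical values of each gene lie on 1 side of 0 because the rule asked for it, while in the base 6 of the 12 upper genes lie beyond 2-fold on the other side.

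All 20 members of the ribbon synapse list passed, with 6 past 2-fold higher in OHCs and 6 lower, no larger a share than the 35.4% and 35.8% of all genes. The median was −0.18, with 0.05 in the higher and −0.96 in the lower numbers, and 2 and 4 members were past 2-fold in both series. The lower ones in both were Otof, Slc17a8, Rims2 and Amph. Rims2, a scaffold of the active zone that tethers calcium channels, had levels of 3.39 CPM in OHCs and 69.8 CPM in IHCs, though 1 OHC held 97% and 1 IHC 60% of the counts. Amph, amphiphysin, which recruits proteins for endocytosis, had medians of 6.04 and 19.6 CPM and a ratio of −1.78.

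Higher in OHCs in both series were Cacna1d, which encodes the pore of the hair cell calcium channel, and Cacnb2, its auxiliary subunit. Cacna1d was read in 21 of 21 OHCs, from 0.244 to 2313 CPM with a median of 309 CPM, and in IHCs it ran from 0 to 3016 CPM with a median of 10.3 CPM. Its ratio was 1.38 pooled, 1.04 in the higher and 2.73 in the lower numbers. The Cacnb2 levels, 17.1 and 4.15 CPM, came to 97% and 98% from 1 cell each. Bsn, which encodes the scaffold bassoon, had the highest ratio of the list, 4.33, but nearly all OHC counts came from 1 cell and the medians were 0 CPM. Ctbp2, from which the ribbon protein is also made, had 44.4 and 23.6 CPM, a ratio of 0.89 pooled and −3.73 in the lower numbers. Snap25, a membrane fusion protein, had medians of 23.9 and 82.4 CPM and a pooled ratio of 0.83, so its median and its pooled level point in opposite directions.

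The efferent synapse and the potassium channels differed by single members. Of 6 efferent synapse genes 4 passed, 3 of them past 2-fold higher in OHCs and 1 lower, beside 35.4% and 35.8% of all genes. Kcnn2, which encodes the calcium-activated potassium channel that follows the nicotinic receptor, was read in 17 of 21 OHCs and 12 of 34 IHCs. It ran from 0 to 450 CPM (median 0.836) against 0 to 95.1 CPM (median 0), with ratios of 3.02 pooled, 2.61 in the higher and 4.68 in the lower numbers. Chrna9, a receptor subunit, had 9.33 and 3.01 CPM, with a ratio of 1.18 in the higher numbers, and 1 OHC held 87% of its counts. Chrna10, the partner subunit, had 81.9 and 10.3 CPM, a ratio of 2.66 in the higher numbers, and 0.0393 and 0 CPM in the lower. Chrna1, the muscle-type subunit, had pooled levels of 0.0597 CPM in OHCs and 52.1 CPM in IHCs, with 0.0146 against 92.1 CPM in the higher numbers and 0.197 against 0.0503 CPM in the lower.

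Of 14 potassium channel genes 11 passed, 2 at least 2-fold higher, Kcnn2 among them, and 5 lower, beside 35.4% and 35.8% of all genes. Kcna10 had 0.298 CPM in OHCs, all in 1 cell, while 19 of 34 IHCs had a read and the highest had 553 CPM. In the lower numbers it was at 0 and 0.779 CPM. Kcnj16, an inward rectifier, had 31.5 and 754 CPM, and Kcnab1, an auxiliary subunit, 4.61 and 68.4 CPM, and both were lower in both series. Kcnma1, which encodes the large-conductance channel of IHCs, had medians of 1.08 CPM in OHCs and 90.8 CPM in IHCs, and its ratio of −1.20 was −0.84 in the higher and −7.65 in the lower numbers.

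Of 16 calcium handling genes, 7 were past 2-fold higher in OHCs and 6 lower, near the 35.4% and 35.8% of all genes. The median was 0.92, with 0.61 in the higher and 0.86 in the lower numbers. Ocm, Sri and S100b were higher in both series, and Atp2a3, Calb2 and Calm2 were among those lower in both. Calm2, which encodes the calcium sensor calmodulin, ran from 0 to 1284 CPM in OHCs (median 27.9) and from 0 to 7118 CPM in IHCs (median 1269), a ratio of −2.28. Calm3, which also encodes calmodulin, had medians of 3.02 and 2.82 CPM and a ratio of 0.98. Calb2, which encodes calretinin, had medians of 18.3 and 204 CPM and a ratio of −2.69.

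The plasma membrane calcium pumps pointed in opposite directions. Atp2b2, the pump of the hair bundle, ran from 0 to 5488 CPM in OHCs (median 440.5) and from 0 to 3812 CPM in IHCs (median 85.9), a ratio of 1.09, with 0.63 in the higher and 3.59 in the lower numbers. Atp2b1, a pump of the basolateral membrane of IHCs, had medians of 375 and 1231 CPM and a ratio of −1.33. S100b had a pooled ratio of 1.56 but medians of 2.42 and 2.45 CPM, with 1 OHC holding 53% of its counts. Pvalb, parvalbumin, had medians of 33.5 and 4.75 CPM and a ratio of 1.23, which was 0.73 in the higher numbers.

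The mechanotransduction genes were mostly higher in OHCs when pooled and in the higher numbers, and mostly lower in the lower numbers. Of 13 genes 10 passed, 7 were at least 2-fold higher and 1 lower, beside 35.4% and 35.8% of all genes. Their median was 1.69 pooled, 1.39 in the higher and −2.13 in the lower numbers. Tmc1, which encodes the pore of the channel, ran from 0 to 4286 CPM in OHCs (median 152) and reached 784 CPM in IHCs, with ratios of 1.61 pooled and 0.84 and 3.34 in the 2 series. Lhfpl5, a subunit of the channel complex, was read in 13 of 21 OHCs and 27 of 34 IHCs, with medians of 262 and 51.7 CPM and ratios of 2.11 and −4.33 in the 2 series. Tmie, another subunit, had ratios of 2.95 and −2.53, and Cib2, a calcium-binding subunit, 2.01 and −2.81. Pcdh15, which encodes the lower part of the tip link, was past 2-fold in both, at 1.57 and 4.63, with 1 OHC holding 59% of its counts. In the middle and the base Pcdh15 was lower in OHCs, at −2.31 and −5.62. Tomt, which brings the pore protein to the bundle, was lower in both apical series, at −2.65 in the higher numbers and 0.0393 against 3.44 CPM in the lower.

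Of 23 stereocilia genes that passed, of 26, 6 were at least 2-fold higher and 4 lower, beside 35.4% and 35.8% of all genes. Their median was 0.30 pooled, 0.21 in the higher and −1.17 in the lower numbers. Triobp, which bundles actin in the rootlets, was read in 21 of 21 OHCs, with medians of 413 and 81.6 CPM, a ratio of 1.84 and the OHC higher in 78.3% of pairs, although in the lower numbers the ratio was 0.18. Whrn, whirlin, had the highest ratio of the list, 2.12, with 1 OHC holding 55.8% of its counts, medians of 0 CPM in both types and ratios of −3.04 in the middle and −5.41 in the base. Espnl, an espin-like protein, had the lowest, −3.09, with 1 IHC holding 86% of its IHC counts. Actb, beta-actin, had medians of 6918 and 6691 CPM and a ratio of −0.31. Of 11 lateral wall and cortex genes that passed, of 15, 4 were higher and 4 lower, near the same shares of all genes. Their median was 0.21 pooled, −0.39 in the higher and −3.45 in the lower numbers. Slc26a5 and Sptb, an erythroid spectrin, were higher in both series, and Slc4a2, an anion exchanger, was lower in both, at −1.88. Ank3, an ankyrin, had medians of 6.34 and 314 CPM, and Epb41, a membrane skeleton protein, of 0 and 17.4 CPM.

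Among hair cell transcription factors 15 of 17 passed, with 4 at least 2-fold higher and 4 lower, beside 35.4% and 35.8% of all genes. Their median was 0.55 pooled, 0.42 in the higher and −0.95 in the lower numbers. Beside Ikzf2, whose ratio in the lower numbers came mainly from 1 OHC, Bhlhe41, a repressor of the circadian clock, was higher in both series. Bhlhe41 had medians of 304 and 3.78 CPM and a ratio of 2.04. Beside Tbx2, Rfx7 was lower in both, with a ratio of −2.42. Casz1, a zinc finger factor, was read in 29 of 34 IHCs and 11 of 21 OHCs, with medians of 16.8 and 0.202 CPM and ratios of −0.22 and −7.39 in the higher and lower numbers. Rorb, a nuclear receptor, had medians of 2829 and 9769 CPM and a ratio of −0.90, with the OHC higher in 26.3% of pairs.

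Immediate early genes, which cells switch on within minutes of a stimulus, were lower in apical OHCs. Of 16, 13 passed, 9 were past 2-fold lower and 1 higher, beside 35.8% and 35.4% of all genes. The median was −3.81, and Fos, Jun, Junb, Egr1 and Btg2 were lower in both series. Fos reached 5.45 CPM in OHCs and 1561 CPM in IHCs, and was read in 4 of 21 and 23 of 34 cells. Egr1 had levels of 4.70 and 336 CPM, and 1 OHC held 95% of the OHC counts. Jun had medians of 0 and 4.43 CPM and highest values of 2.02 and 1136 CPM. The list's median was −4.62 in the higher and −0.69 in the lower numbers, and the IHCs ran from 2.81 to 10984 CPM in its sum (median 604) against 0.627 to 548 CPM (median 46.3) in OHCs. The 1 higher gene, Egr3, came from 1 OHC.

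Markers of supporting cells, which surround the hair cells, were also lower in OHCs when pooled and in the higher numbers. Of 16, 13 passed, 8 were past 2-fold lower in OHCs and 2 higher, beside 35.8% and 35.4% of all genes. The median of the list was −2.92 pooled and −3.37 in the higher numbers. In the lower numbers it was −0.25, near the −0.18 of all genes. Their summed level ran from 0.976 to 3973 CPM in OHCs (median 99.3) and from 0 to 12019 CPM in IHCs (median 1181). Slc1a3, the glutamate transporter of the cells around the IHC, was read in 31 of 34 IHCs, from 0 to 5597 CPM with a median of 421 CPM. It was read in 7 of 21 OHCs with a median of 0, and 1 OHC held 99% of the OHC counts. Gjb2 and Gjb6, the connexins of supporting cells, had 4.17 against 371 CPM and 5.29 against 132 CPM, and both were lower in both series, as was Epyc. Sox2 was read in 16 of 34 IHCs and 1 of 21 OHCs. Ptprz1, Fgf10 and Btg2 rank among the lower genes named above, and the part of supporting cell RNA in them was not tested.

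Haemoglobin went the other way. The 4 haemoglobin genes passed, and each was past 2-fold higher in OHCs in both series, and the fifth blood marker, Alas2, did not pass. Hba-a1 ran from 23.3 to 7762 CPM in OHCs (median 1266) and from 0 to 3816 CPM in IHCs (median 175), a ratio of 2.05, and the OHC was higher in 80.8% of pairs. The summed level of the list had medians of 1495 and 280 CPM, and its part in the genes higher in OHCs was not tested. Of other cell types, neuron markers had a median of 0.70 (4 higher, 0 lower of 8 that passed), glia −0.08 (2 and 1 of 6) and mesenchyme and bone 1.34 (5 and 2 of 9). The shares of all genes beside such counts were 35.4% higher and 35.8% lower. Sparc, a matrix protein of the last list, was lower in OHCs, with medians of 26.8 and 1166 CPM. The pooled glia median hides a split, with 1.85 in the higher and −1.87 in the lower numbers. Immune markers had 2 higher and 0 lower of 3 that passed, with summed medians of 1.41 and 2.04 CPM, and the higher ones, C1qa and Tyrobp, had 94.2% and 99.6% of their OHC counts in 1 cell each. Stria vascularis markers had 2 higher and 2 lower of 5, and of 8 markers of endothelium and pericytes only Rgs5 passed, at −5.68.

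**Figure D5:**
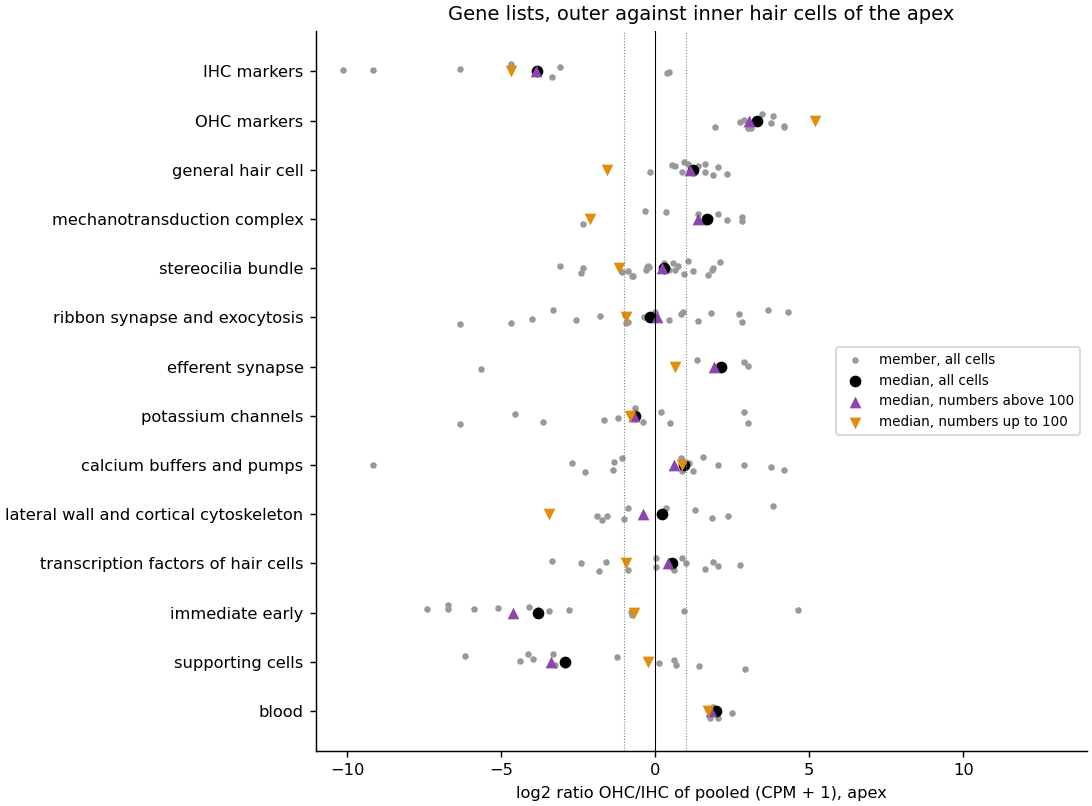
Log2 ratio of pooled (CPM + 1), OHC over IHC, for the members of 14 gene lists that passed the filter in the apex; grey points are members, and symbols are the list's median in all cells and in each title-number series. The IHC and OHC marker medians keep their side of 0 in both series, while general hair cell (1.23 and −1.55 in the lower numbers) and mechanotransduction genes (1.69 and −2.13) do not.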

How the data were processed

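RNA of single cells was sequenced, and the authors deposited 1 table of raw counts with 55335 lines named by gene identifier. Trimmomatic, HISAT2 with GRCm38 (mm10), and featureCounts of Subread 1.4.6 are named in the submitters' processing notes. How reads that map to several places were treated, and whether molecular identifiers were used, is not stated in the labels or notes. Genes with near-identical copies, such as calmodulin, globin and ribosomal protein genes, are therefore uncertain.

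Symbols came from GENCODE M21, where 55154 identifiers matched without their version. Another 181 lines, with 0.0103% of apical counts, have no symbol and were kept out of lists. Counts were summed per group, with the 6 groups of the series scaled by TMM (edgeR 4.0.16, R 4.3.3), and given as CPM, the count scaled to a common total. Genes needed 5 CPM in 1 or both apical groups. The pseudocount of 1 CPM understates differences of low genes. Intervals are exact Poisson intervals at 95%. Cells are not replicates, so no p-value was computed. Single cells are named by accession order within a group. No doublet caller was run.

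The cells, gene lists and rules were chosen with earlier results of these data known. The rule for named genes is given in the text, with at least 10 CPM in the higher type and the same direction without the deepest cell of each type. The defining markers, the extremes of each list and up to 6 other members were also named. The ribosomal protein list leaves out the S6 kinases. The pooled ratio and the rule for named genes were tested on simulated counts with known differences. The share of pairs was checked on a small made-up example, and the other steps were not tested in this way. Alternatives were other weights of cells, scalings (also DESeq2 1.42.0 size factors), pseudocounts, filters and sets of cells. Start regions are RefSeq sequences. Some members of the lists are counted but not reported here by name.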

Additional observations from a re-analysis of the deposited data

How the results depend on the processing

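None of the 28 named and defining genes changed direction under 17 alternatives, but 24 of them were chosen by a rule that fixes the direction with equal weight, in both series and without the deepest cells. By the median of the cells 6 of the 24 were under 2-fold, namely Ehbp1 (−0.16), Cacna2d4 (0.39), Syncrip (0.45), Prmt3 (0.51), Cox7b (0.85) and Prkce (0.96). The lower title numbers without TMM factors were added after seeing the data. The numbers of genes past 2-fold did change. By the median of the cells 377 were higher and 950 lower in OHCs, and with a filter at 20 CPM, which tests 6813 genes, 2420 and 2070. In cells numbered up to 100, 1320 were higher, and 1687 without TMM factors. The same cells gave 9 of 27 list medians a sign other than the pooled one. They turned the medians of general hair cell genes to −1.55 (−1.18 without TMM factors), of mechanotransduction genes to −2.13 (−1.70) and of immune markers to −0.82 (−0.65). The others were stereocilia (0.30 to −1.17), lateral wall (0.21 to −3.45), transcription factors (0.55 to −0.95), apoptosis (0.42 to −0.15), ribosomal proteins (0.59 to −0.80) and stria vascularis (−0.14 to 1.34), and the cause was not tested. For stria vascularis (1.32) and lateral wall (−0.39) the higher numbers too had a sign other than the pooled one. DESeq2 size factors moved the median of all genes from 0.07 to 0.40, and the counts to 4646 and 3696. Without the 4 cells against their label 4019 and 4034 genes were past 2-fold. Counting the 2 IHC columns numbered 17 as 1 cell leaves pooled sums as they are. Members at 0 counts, set to 3 counts, moved no list median by more than 0.161.

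No paired analysis was possible because the replicate numbers only name cells and no test was run. At 21 and 34 cells with no named animal, the spread between animals is unknown.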

Other observations

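A view that gives each cell the same weight is the share of OHC and IHC pairs in which the OHC is higher. Of 11402 genes with a symbol, 5 (0.0439%) were higher in at least 80% of pairs in both title-number series and 10 (0.0877%) in at most 20%. This view was added with the values known, and cells of 1 type are not replicates. Higher in OHCs were Ocm, Olfm1, Slc26a5, Tmem229a and Lpin2. Lpin2, a lipin that makes diacylglycerol, ran from 1.20 to 21549 CPM in OHCs (median 5027) and from 0 to 5727 CPM in IHCs (median 420), with a pooled log2 ratio of 3.18, and of 1.55 among middle and 4.44 among basal cells. Tmem229a, a transmembrane protein, had medians of 999 and 4.25 CPM, although its highest cell was an IHC at 26498 CPM.

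Lower in OHCs were Atp2a3, Slc17a8, Otof, Ptprz1, Ppp2r2b and Calb2, beside Spock1, Pgm2l1, Ccn1 and Fcrlb. Spock1, a matrix proteoglycan, ran from 0 to 10045 CPM in IHCs (median 1018) and had a median of 0 CPM in OHCs, where 1 cell held 66.7% of the counts. Pgm2l1, which makes glucose bisphosphate, had medians of 137 CPM in OHCs and 4854 CPM in IHCs, with a pooled log2 ratio of −3.56, and of −2.28 among middle and −2.43 among basal cells. Ccn1, a matrix protein that is also an early response gene, was read in 28 of 34 IHCs and 3 of 21 OHCs. Fcrlb, of the Fc receptor family, had medians of 0.202 and 71.8 CPM.

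Genes of energy supply and upkeep lay near the median of all genes when pooled. The 24 nuclear genes of the respiratory chain had a median log2 ratio of −0.02, 17 glycolysis genes −0.03, 11 chaperones −0.22 and 14 antioxidant genes −0.27. In the higher and lower numbers these 4 medians were −0.03 and −0.65, −0.39 and −0.23, 0.02 and −1.26, and −0.74 and −0.01. All genes had 0.07 and −0.18. The 10 mitochondrially encoded genes that passed had a median of 0.19, with mt-Co1 at 1.11. Of 73 ribosomal protein genes 25 were at least 2-fold higher and 11 lower, beside 35.4% and 35.8% of all genes. Their median was 0.59 pooled and −0.80 in the lower numbers. Sod2, the superoxide dismutase of mitochondria, stood apart, with medians of 4.02 CPM in OHCs and 399 CPM in IHCs and ratios of −1.23 and −7.73 in the higher and lower numbers. Bcl2, a survival factor, was the lowest of 12 genes of apoptosis and the p53 response, whose median was 0.42, at 0.298 CPM in OHCs and 125 CPM in IHCs, and it was lower in OHCs in all 3 regions.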
